A study of Homo sapiens with 12 samples.

Results

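The change in translation efficiency (TE) with replicative senescence was measured gene by gene in human IMR90 cells, a cell line of fibroblasts from normal lung. TE is the amount of ribosome-protected fragments (RPF, the pieces of mRNA left after nuclease digestion because a ribosome covered them, sequenced by Ribo-seq) relative to the amount of the mRNA itself. The genes described are those with a mean of 50 or more RPF reads over 4 Ribo-seq libraries (proliferating replicates 2 and 3, senescent replicates 1 and 3), with histone genes set aside. There were 3959 such well-counted genes among 7473 genes tested. Another 2 genes reached the read minimum but did not pass the filter of the test, and 19 well-counted histone genes were tested but are not described. Proliferating (Pro) cells were compared with cells passaged continuously until they stopped dividing (Sen). From 3 lysates of each state, Ribo-seq and RNA-seq libraries were made side by side, so the 12 libraries fall into 4 groups of 3. No allele or agent distinguishes the groups in the labels, and cycloheximide, which stalls ribosomes, was present in the lysis buffer of both states. Cultures came from 2 isolates that are not tied to samples in the labels, so isolate and state cannot be told apart. RNA-seq data of Pro cells carry a tag resembling the solvent DMSO that the labels do not explain.

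As background, ribosomes are loaded onto an mRNA at its 5′ end, and the letters there can change how often this happens. An iron-responsive element is a short hairpin which, in the 5′ UTR of an mRNA, is bound by the iron regulatory proteins when iron is scarce, and the bound protein keeps ribosomes off. Ferritin, which stores iron inside the cell, is the best known case. A terminal oligopyrimidine (TOP) tract is a run of C and T starting with C at the very first base, typical of mRNAs for ribosomal proteins and elongation factors, whose translation follows nutrient and growth signals. Senescent fibroblasts remain metabolically active and secrete many proteins although they no longer divide.

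The 3 sequences that follow were chosen because each holds the letters of such a hairpin and belongs to a gene whose TE was higher in Sen cells. They were read from transcripts of the GENCODE annotation on GRCh37. The build behind the deposited tables is not given in the sources used here. Capitals mark the 6 bases of the loop, the 5 bases on the left of the loop are the first arm of the stem, and all 3 windows lie within the exonic 5′ UTR.
FTL, chr19:49468592-49468621, plus strand: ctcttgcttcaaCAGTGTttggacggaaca
FTH1, chr11:61735045-61735074, minus strand: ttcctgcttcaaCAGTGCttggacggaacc
EPAS1, chr2:46524618-46524647, plus strand: tacaatcctcggCAGTGTcctgagactgta

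The next 6 sequences are the first 20 bases of the annotated transcript of ribosomal protein and translation factor genes that the results turn on, on the same build. Capitals mark the run of C and T that starts with C at the first base. The first 4 have such a run and had higher TE in Sen cells, PABPC4 has one and had lower TE, and EIF5 has none and had lower TE.
RPS14, chr5:149829283-149829302, minus strand: CTCTCTTTCCggtgtggagt
RPS18, chr6:33239852-33239871, plus strand: CTCTCTTCCacaggaggcct
RPS3, chr11:75110562-75110581, plus strand: CCTTTCCTTTCagcggagcg
EEF2, chr19:3985442-3985461, minus strand: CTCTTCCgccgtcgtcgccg
PABPC4, chr1:40042443-40042462, minus strand: CTCTCTCCgccccgggtcgc
EIF5, chr14:103800574-103800593, plus strand: agtcagagcgagaacattcc

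The reads in mRNA regions numbered 7902427 to 14144455 per RNA-seq library. Reads in coding sequence (CDS) numbered 583798 to 1718521 per Ribo-seq library, except Pro 1 with 54421 and Sen 2 with 54708, where 3 reads correspond to 55.1 and 54.8 CPM, the counts scaled to library size. The CDS took 34.4% of assigned Ribo-seq reads in Pro 1 and 15.0% in Sen 2, against 54.7% to 88.8% in the other 4 libraries. All 11 fibroblast markers were above 1 CPM in RNA-seq, with a summed level of 33114 to 42051 CPM over the 6 libraries. Only 1 of 9 epithelial, 1 of 7 endothelial and 1 of 8 immune markers passed that level, with summed levels of at most 23.5, 113 and 37.9 CPM. Levels are given below as CPM in the order of replicates 1, 2 and 3, and TE differences as log2 of Sen over Pro with their standard error (SE), n = 3 lysates per state. In such bulk samples, a change in every cell and a change in the share of cells in some state cannot be told apart. Nothing in the labels says more than that the 3 lysates were separate samples, so p-values measure the spread between them.

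TE passed the threshold (a Benjamini-Hochberg adjusted p under 0.15 in the quasi-likelihood test of edgeR) in 499 of 3959 well-counted genes, 12.6%, against 10.0% of all genes tested. It was higher in Sen cells for 335 genes (8.46%) and lower for 164 (4.14%), against 6.32% and 3.73% of all genes tested. DESeq2 called 75 well-counted genes (1.89%), each among the 499, with 60 higher (1.52%) and 15 lower (0.379%). It gave some well-counted genes, such as NAA20, CIRBP and MRPL13, no adjusted p, and these count here as not called. The number of calls was 77, 108, 117 and 94 without Pro 2, Pro 3, Sen 1 and Sen 3, 768 without Pro 1, and 771 without both shallow lysates, Pro 1 and Sen 2. The split into higher and lower depends on how the libraries were scaled. Under the scaling used here 67.1% of the calls were higher, and under 4 others from 45.4% to 54.9%. Of the 499 genes, 412 passed the threshold under each of the 4. All 499 kept their sign there, but they were chosen on these same counts, so the sign is no separate evidence. Most TE differences were small. The middle 90% of well-counted genes lay between -0.55 and 0.61, the median was 0.03, and the median SE was 0.21. A TE difference of more than 1 was found for 35 genes (0.884%), of which 29 were higher and 6 lower, whereas an mRNA difference of more than 1 was found for 386 genes (9.75%). The smallest TE difference past the threshold was 0.42.

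The called genes did not follow a single pattern of mRNA and footprints. As background, a change in mRNA passed the threshold in 79.6% of well-counted genes (73.6% of all genes tested in RNA-seq) and a change in footprints in 62.1% (54.4%). By direction, mRNA was higher for 4684 and lower for 4729 of 12787 genes tested. Footprints were higher for 2066 and lower for 2022 of 7521. Counts of mRNA and footprint changes in the lists below are to be read against these. Among the 335 genes with higher TE, mRNA was higher in Sen cells for 146, lower for 133 and not past the threshold for 56. Their footprints were higher for 237, lower for 19 and not past the threshold for 79. Among the 164 genes with lower TE, mRNA was higher for 59 and lower for 58, while footprints were lower for 131 and higher for 10. Higher TE thus included 146 genes whose footprints rose more than a rising mRNA, such as EPAS1, GADD45A and CCND2. It also included 78 genes whose mRNA fell while a change in footprints did not pass the test, such as RPS9, RPS3 and U2AF1. Since mRNA enters both quantities, these counts describe the calls and are no separate evidence. The call of CCND2 was lost with DESeq2 (adjusted p = 0.326) and without Pro 2, Pro 3 or Sen 3. It was also lost with the GC and length trends described below removed (adjusted p = 0.161, edgeR). RPF values of CCND2 were not whole reads in 6 of 6 Ribo-seq libraries. All 6 lysates were separated by state, with no overlap and with RPF reads in each, in 246 of the 499 called genes. Over all well-counted genes this held for 17.7%. The calls were made on the same values, so this comparison is no separate evidence either.

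**Figure D1:**
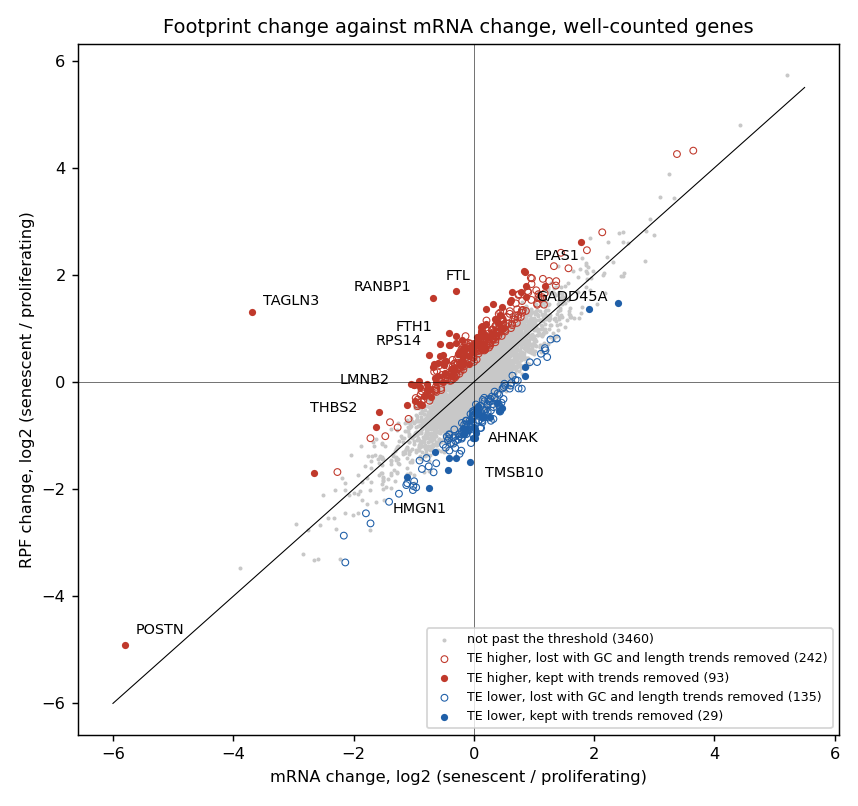
Log2 difference of RPF (vertical axis) against log2 difference of mRNA (horizontal axis), Sen over Pro, for each well-counted gene. Points on the diagonal have a TE difference of 0, coloured points passed the TE threshold (335 higher, 164 lower; filled where they also passed with GC and length trends removed, 93 and 29), and named points include FTL and RANBP1 above the diagonal and TMSB10 below it.

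The called genes differed strongly in base composition. The CDS GC content had a median of 51.0% over well-counted genes, 58.7% over genes with higher TE and 42.4% over genes with lower TE, with sequence features matched for 98.1% of the genes. In the quintile of genes with the lowest GC (35.3% to 43.9%), 3 were called higher and 100 lower. In the quintile with the highest GC (59.0% to 79.7%), 154 were called higher and 6 lower, and the median TE difference rose from -0.25 to 0.27 between these quintiles. CDS length moved less, with medians of 1410 bases over well-counted genes, 1179 bases over genes with higher TE and 1840.5 bases over genes with lower TE.

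This GC pattern did not divide the lysates by state. With each gene centred on its mean over the 6 lysates, the median TE of the lowest GC quintile was -0.14 in Pro 1, 0.27 in Pro 2 and 0.18 in Pro 3, against -0.07, -0.09 and -0.02 in Sen 1, 2 and 3. In the highest GC quintile it was 0.14 in Pro 1, -0.19 in Pro 2 and -0.17 in Pro 3, against 0.14, 0.02 and 0.12 in the Sen lysates. Pro 2 and Pro 3 stood apart, and Pro 1, a shallow library, lay with the Sen lysates. The mean CDS GC content, weighted by reads, was 52.2% and 52.3% in the Ribo-seq libraries Pro 2 and Pro 3 and 53.3% to 53.8% in the other 4, while the RNA-seq libraries spanned 53.3% to 54.0%. The part of this shift in the TE calls was not tested. Values from a second fit, in which the trend of each library with GC content and length was removed, chosen after seeing the data, are therefore given beside the results.

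**Figure D2:**
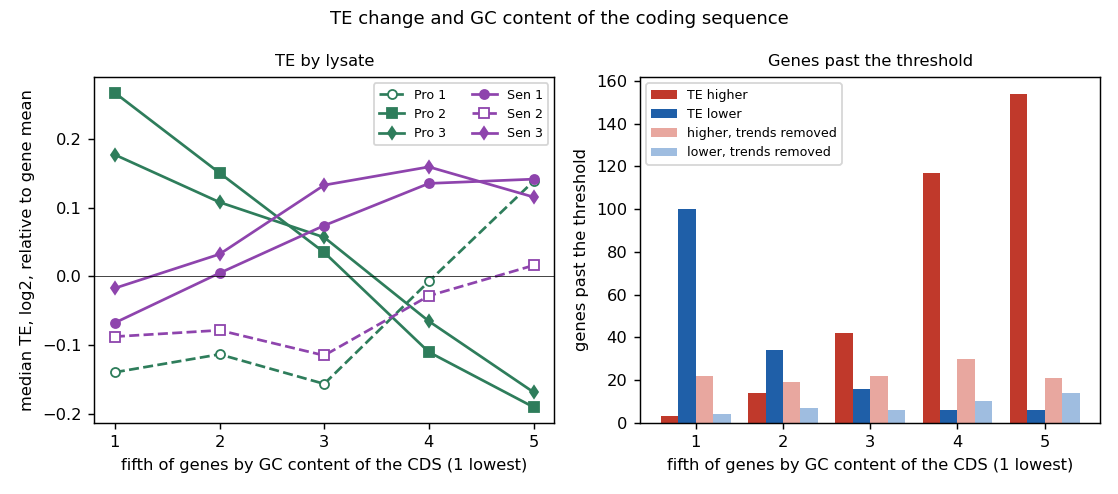
Left, the median TE of each lysate (log2, each gene centred on its mean over the 6 lysates) by quintile of CDS GC content, with dashed lines for the shallow lysates. Right, the number of well-counted genes past the threshold in each quintile, which goes from 3 higher and 100 lower to 154 higher and 6 lower, with paler bars for the fit with the trends removed; on the left, Pro 2 and Pro 3 fall with GC content while the other 4 lysates end higher than they start.

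With the trends removed, 160 well-counted genes (4.04%) passed the threshold, 118 higher (2.98%) and 42 lower (1.06%). Of the 499 genes, 122 were among them, 93 higher and 29 lower. All 499 had the same sign in both fits, which use the same counts, so the sign is no separate evidence. A group of 27 genes passed in both fits and also whenever any 1 of the 6 lysates was left out. The 22 higher ones were TAGLN3, RANBP1, FTL, RPL10L, SLC25A6, NAA20, CNPPD1, EPAS1, CIRBP, EHD3, RPS14, GADD45A, THBS2, CLDN11, EEF2, LMNB2, PHLDA3, MYL6B, ARF3, HSPA1A, RPS3 and ACTA1. The 5 lower ones were TMSB10, MRPL13, COX7B, PRRC2C and AHNAK. Other alternatives did not enter this choice. With limma-voom, which called 20 well-counted genes, RPL10L, NAA20, CNPPD1, CIRBP, EHD3, THBS2, LMNB2, HSPA1A, MRPL13, COX7B and PRRC2C did not pass. FTL, RANBP1, SLC25A6, EPAS1, RPS14, EEF2, RPS3, TMSB10 and AHNAK did. DESeq2 gave no adjusted p for TAGLN3, NAA20, CNPPD1, CIRBP, EHD3, PHLDA3, HSPA1A, COX7B and MRPL13. Only 28 of the 499 genes passed in each fit that left out 1 lysate, so the other called genes named below lost their call without at least 1 of them.

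Ferritin mRNAs carried more footprints per mRNA in Sen cells. FTL encodes the light chain of ferritin and lies at chr19:49468566-49470136. Its RPF level was 677, 184 and 187 CPM in the Pro lysates and 598, 1049 and 762 CPM in the Sen lysates. The mRNA level was 4788, 4953 and 4297 CPM in Pro and 3781, 3870 and 3571 CPM in Sen. Footprints thus increased while mRNA decreased, although the RPF level of Pro 1, from 39 reads, lay within the Sen range. The TE difference was 1.99 ± 0.24 (SE, adjusted p = 1.29e-09, edgeR), or 1.85 (adjusted p = 4.71e-08) with the trends removed. FTL passed the threshold under all 20 alternatives that gave it a TE difference. A further alternative, a regression of RPF on mRNA, gives no TE difference and called 0 genes. It is left out of such counts of alternatives. The mean RPF level in Pro cells was 349 ± 284 CPM (SD, n = 3), an SD set by Pro 1.

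FTH1, the ferritin heavy chain that oxidises iron for storage, changed in the same direction by less. Its RPF level was 295, 209 and 142 CPM in Pro and 294, 267 and 278 CPM in Sen. The FTH1 mRNA level was 3755, 3826 and 3111 CPM in Pro and 2563, 2714 and 2630 CPM in Sen. The mRNA groups did not overlap and the RPF groups did. The TE difference was 1.07 ± 0.22 (adjusted p = 0.00102, edgeR) and 1.10 (adjusted p = 0.00179) with the trends removed. Without Pro 3 it no longer passed (adjusted p = 0.177). Both ferritin genes have many processed pseudogenes, and RPF values that are not whole reads, a possible sign of reads shared among genes, were found in 3 of 6 Ribo-seq libraries for FTL and in 4 for FTH1.

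EPAS1 encodes HIF-2α, a transcription factor that responds to low oxygen. Its RPF level was 139, 135 and 103 CPM in Pro and 413, 480 and 601 CPM in Sen, and its mRNA level was 962, 1044 and 858 CPM in Pro and 1663, 1543 and 1770 CPM in Sen. Both layers were higher in every Sen lysate, the footprints by more. The TE difference was 1.22 ± 0.20 (adjusted p = 1.89e-05, edgeR), or 1.04 (adjusted p = 5.98e-04) with the trends removed. EPAS1 passed under each of the 19 alternatives that gave it a TE difference, which again leave out the regression.

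FTL, FTH1 and EPAS1 were among 6 well-counted genes with a matching hairpin, of which 5 are described here. The search took the transcript strand of each 5′ UTR of 20 or more bases and required a loop of CAGTGN with any last base but G, 5 paired bases on its sides (G with T allowed), a C just before the first arm, and at most 1 extra base in the second arm. Of 18514 5′ UTRs, 21 matched (0.113%), while the loop letters alone were found in 14.5%. ADAR and CBX1, the other two described, had TE differences near 0, with ADAR, an RNA-editing enzyme, at -0.12 ± 0.18 (adjusted p = 0.769, edgeR) and CBX1, a heterochromatin protein, at 0.05 ± 0.24 (adjusted p = 0.926). A match of letters is a description of the window and not a measured binding site, and ADAR and CBX1 were named after their values were seen. SLC40A1, the iron exporter, matched too but was not tested for TE.

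TFRC, NCOA4 and IREB2, also genes of iron handling, did not pass the TE threshold. TFRC, the transferrin receptor, whose known elements lie in the 3′ UTR and act on mRNA decay, had lower mRNA (-0.70) and lower footprints (-0.86) in Sen cells. Its TE difference was -0.09 ± 0.16 (adjusted p = 0.824, edgeR). NCOA4, the receptor that sends ferritin to the lysosome, had 0.24 ± 0.17 (adjusted p = 0.451). IREB2, an iron regulatory protein, had 0.51 ± 0.25 (adjusted p = 0.267), and it passed with the trends removed (0.83, adjusted p = 0.0667). On the list of iron storage and uptake, 3 of 8 well-counted genes were higher (FTL, FTH1 and the ferrireductase STEAP3) and 0 lower, against 8.46% and 4.14% of well-counted genes, with a median TE difference of 0.38 against 0.03 over all well-counted genes. STEAP3, at 0.57 (adjusted p = 0.141, edgeR), lost its call under 16 of 18 alternatives, among them the removal of the trends (0.29, adjusted p = 0.656).

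**Figure D3:**
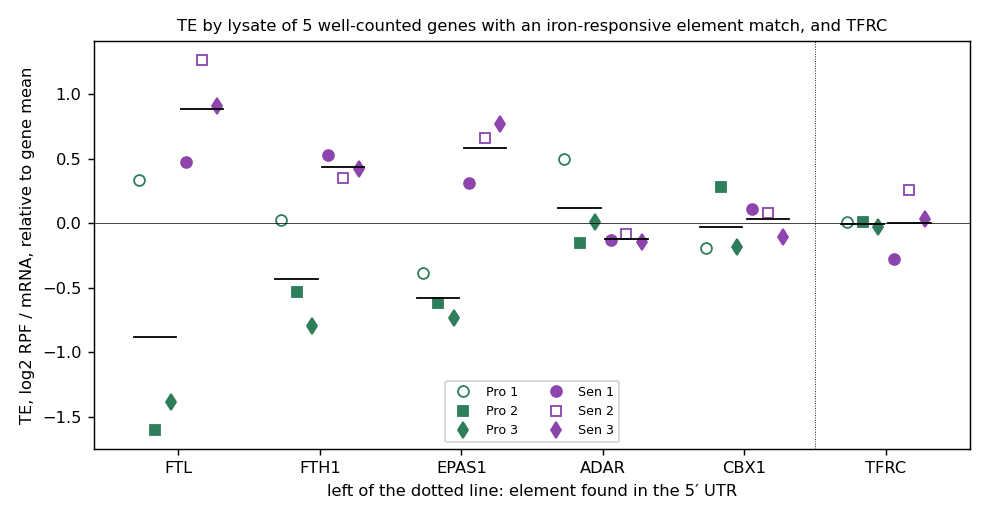
TE by lysate (log2 ratio of RPF to mRNA, each gene centred on its mean over the 6 lysates) for 5 genes with a matching hairpin in the 5′ UTR and, right of the dotted line, TFRC. Bars mark the mean of 3 lysates and open symbols the shallow ones; Sen lysates lie above all Pro lysates for FTL, FTH1 and EPAS1, and the states overlap for CBX1 and TFRC.

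Ribosomal protein mRNAs fell in Sen cells and their footprints fell by less. Of 79 cytosolic ribosomal protein genes, all well counted, TE was higher for 26 and lower for 0, against 8.46% and 4.14% of well-counted genes. Their median TE difference was 0.28, which was 0.15 without Sen 3, and 18 were called higher with the trends removed, 15 of them in both fits. The mRNA was lower for 78 of the 79, with a median of -0.54, and the footprints were lower for 45 and higher for 4, with a median of -0.34. Over all genes tested, mRNA was lower for 4729 of 12787, and footprints were lower for 2022 and higher for 2066 of 7521. The lysates did not divide by state for the group as a whole. For Pro 1, 2 and 3 the median TE, centred on each gene's mean, was -0.09, -0.15 and -0.07. For the Sen lysates it was 0.18, -0.15 and 0.34, so that Sen 2, a shallow library, was no higher than the Pro lysates.

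RPS14, a protein of the small subunit, showed the largest difference of the group. Its RPF level was 486, 345 and 358 CPM in Pro and 521, 391 and 541 CPM in Sen. Its mRNA level was 453, 471 and 403 CPM in Pro and 287, 327 and 266 CPM in Sen. The mRNA was lower in every Sen lysate, and the RPF groups overlapped. The TE difference was 1.11 ± 0.17 (adjusted p = 1.39e-06, edgeR), or 0.98 (adjusted p = 7.85e-06) with the trends removed. RPS18 followed with 1.08 (adjusted p = 1.11e-04, edgeR), but did not pass without Sen 3. RPS9 had 0.96 (adjusted p = 9.66e-05) and did not pass without Sen 3 either (adjusted p = 0.163). RPS3, which also acts in DNA repair, had 0.86 (adjusted p = 7.00e-04). The lowest value among ribosomal proteins was -0.42 for RPL22.

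Translation factors, which bring mRNA and tRNA to the ribosome and move it along, went both ways. Of 53 well-counted factors, 10 were higher and 4 lower (26.4% called, against 12.6% of well-counted genes), with a median of -0.07. With the trends removed, 9 were higher and 2 lower, and 8 passed in both fits. EEF2, the factor that moves the ribosome by a codon, had an RPF level of 3454, 3134 and 3481 CPM in Pro and 3891, 3770 and 5015 CPM in Sen. For the mRNA, the level was 2950, 3068 and 2919 CPM in Pro and 1923, 1633 and 1980 CPM in Sen. The mRNA fell and the footprints rose (0.34, adjusted p = 0.126, edgeR), and neither layer overlapped between the states. The TE difference of EEF2 was 1.02 ± 0.18 (adjusted p = 6.06e-05, edgeR) and 0.83 (adjusted p = 0.00753) with the trends removed. The elongation factor subunits EEF1G (0.89), EEF1D (0.74) and EEF1A1 (0.66) were higher too, as were RACK1, a protein of the small subunit (0.71), and EIF4B (0.53), EIF6 (0.58), TPT1 (0.51), EIF3G (0.46) and EIF3D (0.45).

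The 4 lower factors were EIF5 (-0.77), which triggers GTP hydrolysis at the start codon, the reinitiation factor MCTS1 (-0.71), the poly(A)-binding protein PABPC4 (-0.69) and EIF4G2 (-0.52), a scaffold of initiation. With the trends removed, MCTS1 (adjusted p = 0.645) and EIF4G2 (adjusted p = 0.490) did not pass, nor did EEF1A1 (0.162), EIF3D (0.224), EIF6 (0.285) and EIF3G (0.711) among the higher factors. EIF5 had an RPF level of 208, 261 and 234 CPM in Pro and 134, 142 and 106 CPM in Sen. The EIF5 mRNA level was 342, 327 and 318 CPM in Pro and 284, 295 and 278 CPM in Sen. Both layers were lower in every Sen lysate, the footprints by more, with adjusted p = 0.00759 (edgeR) for TE and 0.121 with the trends removed. It did not pass without Pro 2, Pro 3 or Sen 3.

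A run of C and T at the transcript start was common in both groups but did not mark which ribosomal protein genes passed. A C followed by 4 or more C or T, read on the transcript strand from the annotated first base, was found in 5.16% of 15475 genes with CDS reads and in 7.08% of well-counted genes. It was found in 60 of 79 ribosomal protein genes, with 19 of the 26 called genes and 41 of the other 53. Their median TE difference was 0.26 with the run and 0.33 without it. Among translation factors the run was found in 7 of 10 higher and 1 of 4 lower genes, and the median TE difference was 0.22 with it and -0.18 without it. Outside both groups, 192 well-counted genes had the run. Of these, 15 were called higher and 6 lower, against 8.46% and 4.14% of well-counted genes. Their median of 0.07 was close to the 0.03 over all well-counted genes. Over all called genes the run was found in 12.4% of those higher and 4.32% of those lower. Annotated start sites can differ from those used in these cells.

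**Figure D4:**
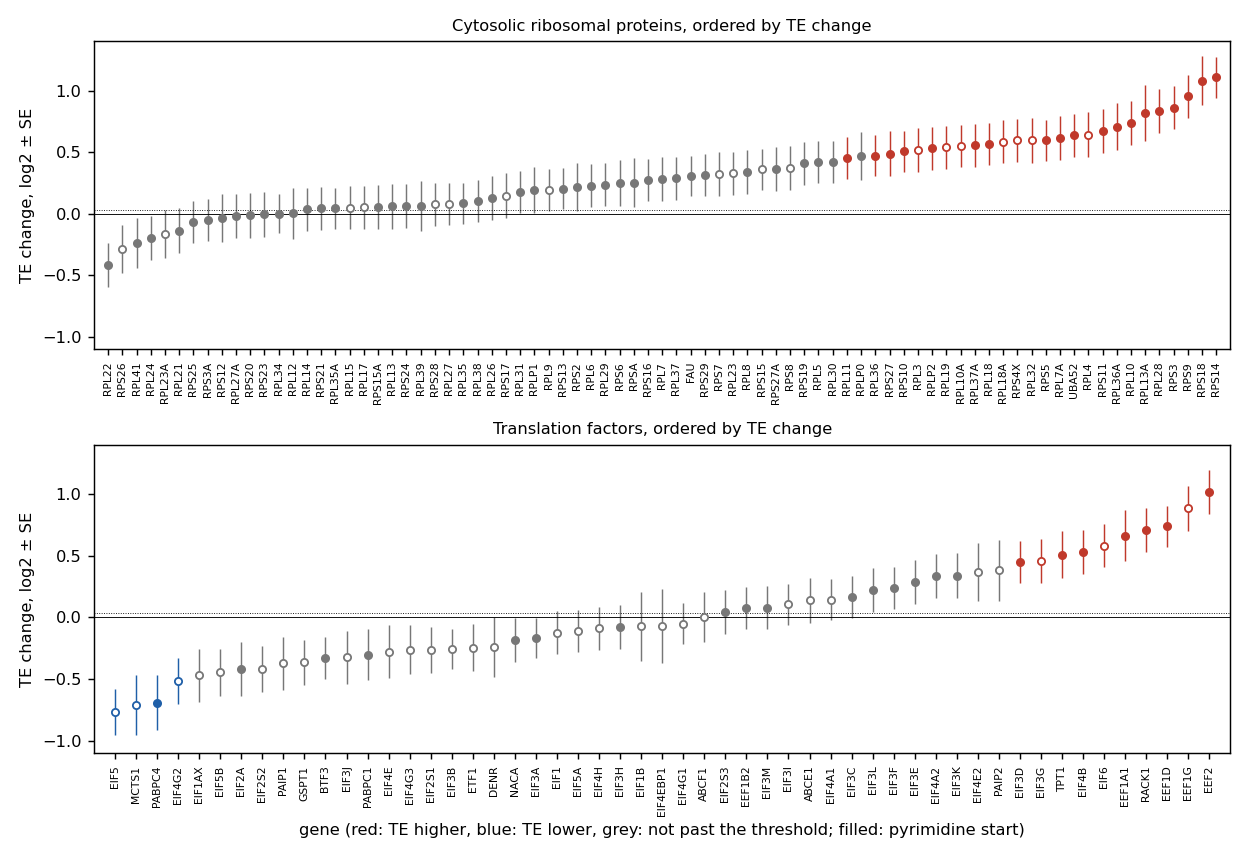
TE difference (log2, Sen over Pro, with its SE as a vertical line) of each cytosolic ribosomal protein and translation factor gene, ordered by value, with called genes in colour and filled symbols for a C and T run at the transcript start. Ribosomal proteins run from -0.42 (RPL22) to 1.11 (RPS14) with 26 called higher and 0 lower, and translation factors from -0.77 (EIF5) to 1.02 (EEF2).

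Glycolysis and collagen-modifying genes had a high CDS GC content, with medians of 56.2% and 59.7%, and few of them passed with the trends removed. Over all well-counted genes, 8.46% were called higher and 4.14% lower. Of 26 glycolysis genes, 8 were higher and 0 lower (median 0.30), including the isomerase GPI (0.56), the lactate exporter SLC16A3 (0.56), PFKFB3, which drives the flux (0.72), and the aldolase ALDOC (0.76), whereas 1 passed with the trends removed and 0 passed in both fits. Of 21 collagen-modifying enzymes and chaperones, 6 were higher and 0 lower (median 0.31), including the collagen chaperone SERPINH1 (0.70), the lysyl hydroxylase PLOD3 (0.60), the procollagen protease BMP1 (0.59) and LOXL1 (0.57), which prepares cross-links. None of these 21 passed with the trends removed. Of 47 genes of the senescence-associated secretory phenotype, secreted proteases and IGF-binding proteins, 3 were higher and 0 lower (median 0.25), a share of 6.38%, namely INHBA (0.64), GDF15 (0.49) and TIMP2 (0.46). With the trends removed, 0 of these 47 were higher and 1 was lower.

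For collagens themselves, the share of TE calls lay near that of all well-counted genes. Of 17 well-counted collagen genes, 0 were higher and 2 lower (11.8% called, against 12.6% of well-counted genes). With the trends removed, 4 were lower (COL4A1, COL4A2, COL5A1 and COL8A1), against 1.06% of well-counted genes. The median was -0.09 before and -0.25 after. COL4A1, a chain of basement membrane collagen, had an RPF level of 3610, 2435 and 2391 CPM in Pro and 3570, 2170 and 2903 CPM in Sen. Its mRNA level ranged from 1217 to 1371 CPM in Pro and from 2091 to 2485 CPM in Sen. The mRNA was higher in every Sen lysate while the RPF groups overlapped, and the TE difference was -0.71 ± 0.19 (adjusted p = 0.0175, edgeR), or -0.85 (adjusted p = 0.00575) with the trends removed. COL5A1, a chain that sets the width of collagen fibrils, had -0.57 (adjusted p = 0.0716) and -0.70 (adjusted p = 0.0209).

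Genes of the matrix around the collagens included 7 higher and 0 lower of 45, or 15.6% called against 12.6% of well-counted genes, and 2 higher and 0 lower with the trends removed. THBS2, a matricellular protein that limits vessel growth, had lower mRNA (-1.58) and less reduced footprints (-0.55), with a TE difference of 1.06 ± 0.19 (adjusted p = 7.89e-05, edgeR). POSTN, periostin, lost nearly all its mRNA (-5.80) and had a TE difference of 1.01 (adjusted p = 0.0594), or 1.29 (adjusted p = 0.00980) with the trends removed. Of 51 integrin and adhesion genes, 6 were higher and 1 lower (13.7% called), and 2 and 0 with the trends removed. The higher ones included the galectin LGALS1 (0.78), whose RPF level was 2413, 2585 and 2658 CPM in Pro and 4541, 3699 and 5830 CPM in Sen. The mRNA of LGALS1 was at 2397, 2388 and 2344 CPM in Pro and 2560, 2870 and 2242 CPM in Sen, so footprints lay apart by state and mRNA did not.

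Among actin and contractile genes, 12 of 76 were higher and 5 lower (22.4% called, against 12.6% of well-counted genes), with a median of 0.09. When the trends were removed, 2 were higher and 3 lower. The lowest value of all well-counted genes belonged to TMSB10, a small peptide that binds actin monomers. Its RPF level was 1875, 2068 and 2007 CPM in Pro and 939, 800 and 417 CPM in Sen, and its mRNA level was 2382, 2258 and 2216 CPM in Pro and 2277, 2370 and 1782 CPM in Sen. Footprints were lower in every Sen lysate with mRNA groups that overlapped. The TE difference was -1.44 ± 0.19 (adjusted p = 3.43e-08, edgeR), or -1.14 (adjusted p = 1.13e-04) with the trends removed. TMSB10 passed under all 20 alternatives that gave it a TE difference, which leave out the regression of RPF on mRNA. Its relative TMSB4X had -0.79 (adjusted p = 0.00759), which was -0.30 (adjusted p = 0.584) with the trends removed.

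Calls among nuclear-encoded mitochondrial genes are read against 8.46% higher and 4.14% lower over all well-counted genes. Of 80 oxidative phosphorylation genes, 4 were higher and 8 lower (15.0% called, median -0.09), and 1 was higher and 3 lower with the trends removed. COX7B, a small subunit of cytochrome c oxidase, had an RPF level of 191, 146 and 104 CPM in Pro and 68.4, 35.6 and 43.1 CPM in Sen, with an mRNA difference of 0.02. Its TE difference was -0.97 ± 0.22 (adjusted p = 0.00455, edgeR), or -0.68 (adjusted p = 0.104) with the trends removed. The RPF level of COX7B in Sen 2 came from 2 reads, under the floor of 3, and its call was lost with thinned RNA-seq and with limma-voom. Of 42 mitochondrial ribosomal proteins, 0 were higher and 2 lower, a share of 4.76% that lies near that of lower calls over all well-counted genes. One was MRPL13, with an RPF level of 156, 125 and 122 CPM in Pro and 43.6, 71.1 and 27.4 CPM in Sen and a TE difference of -1.12 ± 0.25 (adjusted p = 0.0035), and the other was MRPS10 (-0.82).

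The mRNA of cell cycle genes fell, and their TE calls went both ways. Of 36 mitosis and proliferation genes, 31 had lower mRNA, and in TE 4 were higher and 5 lower (9 of 36 called, against 12.6% of well-counted genes, median -0.15), and with the trends removed 1 was higher and 0 lower. That gene was MAD2L1, of the spindle checkpoint, with an mRNA difference of -1.63 and a TE difference of 1.04 (adjusted p = 0.0266, edgeR), or 1.25 (adjusted p = 0.00588) with the trends removed. MAD2L1 had 0 RPF reads in Sen 2, where its TE (log2 ratio of -0.70) lay below each Pro lysate (1.01, 1.06 and 0.74). Its call was lost with thinned RNA-seq and without Pro 3, Sen 1 or Sen 3. Of 39 chromatin, HMG and lamina genes, 2 were higher and 6 lower (20.5% called, median -0.18), and with the trends removed 1 and 2. LMNB2, a nuclear lamin, had an mRNA difference of -1.04 against a footprint difference of -0.04 and a TE difference of 0.97 ± 0.19 (adjusted p = 4.33e-04). HMGN1, which binds nucleosomes, had a TE difference of -1.22 ± 0.29 (adjusted p = 0.00759) that rested on 1, 52 and 140 RPF reads in Pro and 30, 1 and 10 in Sen.

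HMGB1, the chromatin protein whose loss marks senescence in these cells, fell in both layers. Its RPF level was 451, 409 and 371 CPM in Pro and 149, 160 and 110 CPM in Sen, and its mRNA level was 421, 387 and 411 CPM in Pro and 152, 159 and 145 CPM in Sen. Its TE difference was -0.12 ± 0.18 (adjusted p = 0.762, edgeR). CDKN1A, the cell cycle inhibitor p21, rose in both layers, with an mRNA difference of 1.60, a footprint difference of 1.26 and a TE difference of -0.36 ± 0.19 (adjusted p = 0.300), which passed as lower with the trends removed (-0.56, adjusted p = 0.118). CDKN2A, whose locus encodes the inhibitor p16, rose by 0.62 as mRNA and 1.53 in footprints, with a TE difference of 0.96 ± 0.21 (adjusted p = 0.00272), or 0.71 (adjusted p = 0.0525) with the trends removed.

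Of 19 p53 targets and inhibitors of cyclin-dependent kinases, 5 were higher and 0 lower in TE, and 3 passed in both fits. The called share was 26.3%, against 12.6% of well-counted genes. GADD45A, a stress-induced growth arrest gene, had an RPF level of 34.7, 71.3 and 66.3 CPM in Pro and 193, 285 and 284 CPM in Sen. Its mRNA level ranged from 75.4 to 89.1 CPM in Pro and from 134 to 169 CPM in Sen. Footprints and mRNA both rose, the footprints by more, with a TE difference of 1.06 ± 0.20 (adjusted p = 1.61e-04, edgeR), or 0.84 (adjusted p = 0.00452) with the trends removed. PHLDA3, an inhibitor of AKT that p53 induces, had an RPF level of 34.7, 43.1 and 53.7 CPM in Pro and 127, 178 and 159 CPM in Sen, and a TE difference of 0.95 ± 0.22 (adjusted p = 0.00445). The Pro 1 values of both genes, and that of NAA20 below, came from 2 reads each, under the floor of 3.

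Lists of RNA processing and protein folding held calls in both directions. Called were 11.2% of splicing, 22.2% of chaperone and 9.09% of endoplasmic reticulum genes, against 12.6% of all well-counted genes. Of 89 splicing factors and hnRNPs, whose mRNA fell for 80, TE was higher for 8 and lower for 2 (median 0.05), and 3 passed in both fits. SFPQ, a paraspeckle protein, had an RPF level of 903, 536 and 475 CPM in Pro and 172, 160 and 145 CPM in Sen, and its mRNA ranged from 254 to 284 CPM in Pro and from 119 to 129 CPM in Sen. Both layers fell in every Sen lysate, the footprints by more, with a TE difference of -0.61 ± 0.19 (adjusted p = 0.0487, edgeR), or -0.77 (adjusted p = 0.00417) with the trends removed. Of 45 chaperones, 6 were higher and 4 lower (median -0.03), and 4 were higher and 1 lower with the trends removed. The higher ones included the stress-inducible HSP70 genes HSPA1A (0.87) and HSPA1B (0.85), which share nearly all their coding sequence. Of 55 genes of folding and translocation in the endoplasmic reticulum, 3 were higher and 2 lower (median 0.01), among them XBP1, a transcription factor of the unfolded protein response, with an mRNA difference of -0.20, a footprint difference of 0.78 and higher TE in the test (adjusted p = 0.00372), and SEC61B, a translocon subunit, at -0.54 (adjusted p = 0.0914). The call of XBP1 was lost with DESeq2 (adjusted p = 0.656) and without Pro 2, Pro 3 or Sen 3, and its TE in Pro 1 (log2 ratio of 1.01) lay above that of each Sen lysate (-0.03, -0.51 and 0.72).

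Lists of trafficking and turnover lay close to the median of all well-counted genes. Called were 15.3% of vesicle transport, 5.88% of lysosomal, 11.1% of proteasome and 4.55% of tRNA synthetase genes, against 12.6% of all well-counted genes. Of 85 vesicle transport genes, 11 were higher and 2 lower (median 0.04), and 3 and 1 with the trends removed. ARF3, a small GTPase of the Golgi, had 0.88 ± 0.18 (adjusted p = 7.45e-04, edgeR), and its relatives ARF5 and ARF6 had 0.78 and 0.68. With the trends removed, ARF5 passed (adjusted p = 0.109) and ARF6 did not (adjusted p = 0.219). Of 51 lysosomal genes, whose mRNA was higher for 46, TE was higher for 2 (CTSD, cathepsin D, at 0.47 and MAN2B1 at 0.55) and lower for 1, and none of them passed with the trends removed. Of 45 proteasome genes, 2 were higher and 3 lower (median -0.08), and with the trends removed none passed. DNA replication genes, with 28 of 33 lower as mRNA, had 2 higher TE calls, the thymidine kinase TK1 (0.69) and the helicase subunit MCM3 (0.66), and 0 lower, a share of 6.06%. Neither passed with the trends removed (adjusted p = 0.396 and 0.225). Cytosolic tRNA synthetases, with 21 of 22 lower as mRNA, had 1 higher call, QARS (0.63), and a median of -0.09.

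**Figure D5:**
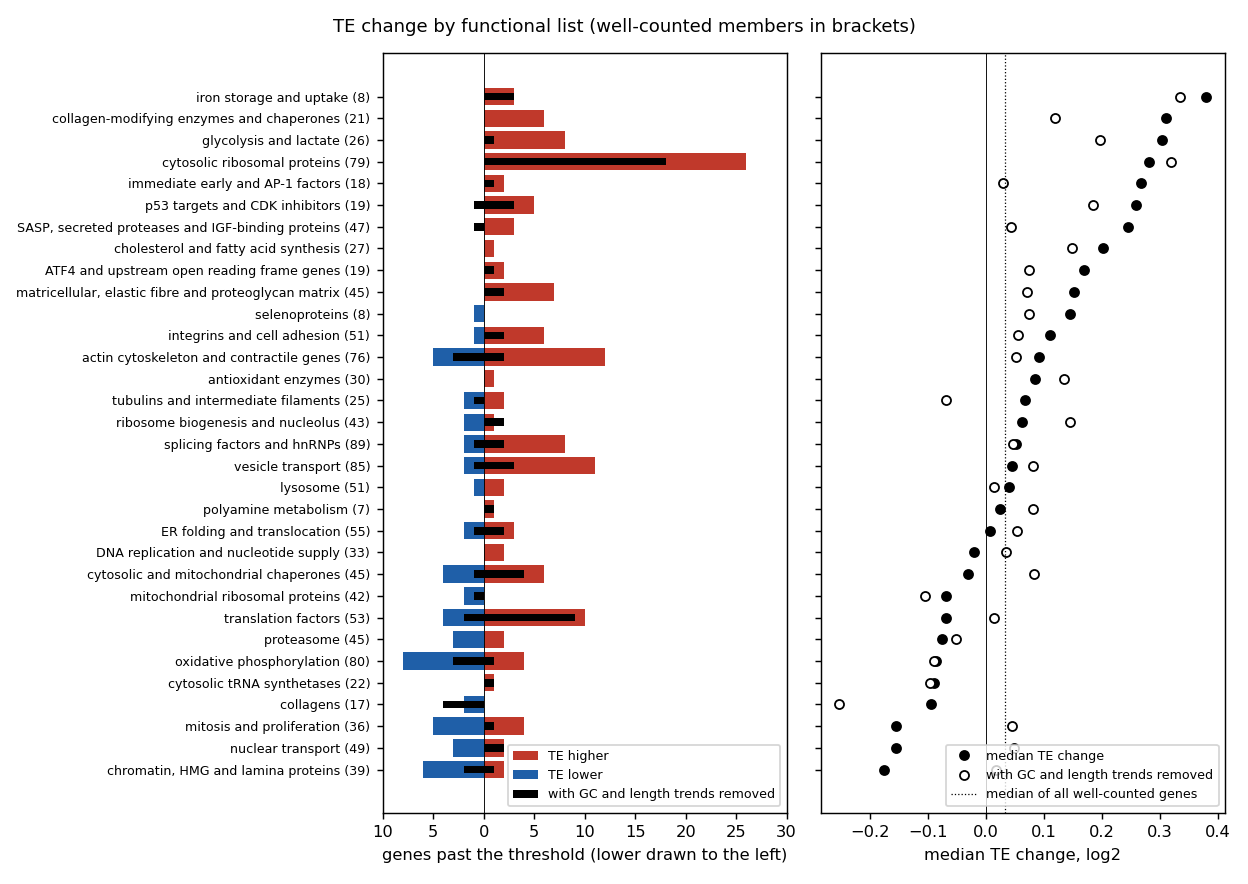
Left, the number of genes past the TE threshold in each list with 7 or more well-counted members (higher to the right, lower to the left), with black bars for the fit with the trends removed. Right, the median TE difference (log2, Sen over Pro) in both fits beside the median of 0.03 over all well-counted genes; iron, collagen-modifying, glycolysis and ribosomal protein genes lie highest in the fit as tested, and collagens lie lowest with the trends removed (-0.25).

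Some of the highest values belonged to genes on no list or to those far from their list. RANBP1, a cofactor of the GTPase Ran in nuclear transport, had an RPF level of 312, 227 and 206 CPM in Pro and 319, 1476 and 795 CPM in Sen, and an mRNA level of 162, 143 and 144 CPM in Pro and 91.9, 97.7 and 84.5 CPM in Sen. Its mRNA fell in every Sen lysate, its RPF level in Sen 1 lay close to that of Pro 1, and the TE difference was 2.18 ± 0.22 (adjusted p = 2.37e-12, edgeR). RPF values of RANBP1 that are not whole reads, a possible sign of shared reads, were found in 5 of 6 Ribo-seq libraries. The 49 well-counted nuclear transport genes had a median of -0.16. NAA20, the catalytic subunit of an N-terminal acetyltransferase, had an RPF level of 34.7, 87.6 and 72.2 CPM in Pro and 135, 196 and 300 CPM in Sen. Its TE difference was 1.25 ± 0.22 (adjusted p = 6.83e-05), with an mRNA difference of 0.21. CIRBP, the cold-inducible RNA-binding protein, had 1.19 ± 0.21 (adjusted p = 2.92e-05), although its RPF level in Pro 1 came from 1 read and those of Pro 2 (119 CPM) and Sen 2 (107 CPM) overlapped. RBM3, a related cold-inducible protein named after its value was seen, had 0.52 (adjusted p = 0.0623).

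At the lower end, AHNAK, a giant scaffold protein below the membrane, had an RPF level of 885, 1273 and 1529 CPM in Pro and 575, 800 and 635 CPM in Sen, with an mRNA difference of -0.01. Its TE difference was -0.93 ± 0.17 (adjusted p = 8.19e-05, edgeR), or -0.69 (adjusted p = 0.00836) with the trends removed. PRRC2C, which has been tied to stress granules, had -0.94 ± 0.20 (adjusted p = 0.0019). MOV10, an RNA helicase, had -0.96 ± 0.25 (adjusted p = 0.0146), but the value turned to 0.41 (adjusted p = 0.381) when CDS reads alone were counted as mRNA.

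Several called genes resemble another gene in sequence, so their values are uncertain. RPL10L, an intronless relative of RPL10, had a TE difference of 1.30 with 30.6 CPM of mRNA in Sen cells, and RPL10 had 0.73 with 936 CPM. TAGLN3 had the highest value of all, 4.60 ± 0.65, but its mRNA was below the floor of 3 reads in every Sen library (mean 0.108 CPM, against 1.36 CPM in Pro), so the fitted value depends on the prior count and is no measure of size. The caution about resemblance to another gene also holds for ACTA1, MYL6B, POTEJ, HSPA1A with HSPA1B, and U2AF1. RPF values that are not whole in 4 or more of the 6 libraries were found for 95 of the 499 called genes and for 11.6% of well-counted genes. At the edge of the read minimum, LSM7 with a mean of 50 reads had a TE difference of 0.37 and VPS37A with 49.75 reads had -0.24.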

How the data were processed

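Ribo-seq and RNA-seq libraries of 6 IMR90 lysates were compared, with groups and numbers from the sample labels. The deposited tables give expected counts per gene symbol (38716 symbols) and region, which the authors had assigned from reads and not scaled to depth. From 12.1% to 22.7% of nonzero CDS values in Ribo-seq were not whole. The tests had been planned for plain counts, so values were rounded after regions were summed. The submitters' processing notes name cutadapt 1.18, Bowtie 1.0.1, SAMtools 1.8 and DESeq2 1.22.2, while the genome build, annotation, strand rule and handling of multiply placed reads are not given in the sources used here. Per the labels, footprints of 28 to 32 nt were isolated on a gel. Only CDS reads counted as RPF, and 5′ UTR, CDS and 3′ UTR reads together counted as mRNA.

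For TE, a quasi-likelihood fit in edgeR 4.0.16 (R 4.3.3) was made on genes kept by filterByExpr in both types, with TMM factors within each type, lysate as block, library type and its interaction with state, two-sided, with Benjamini-Hochberg adjustment over all 7473 genes and a threshold of 0.15. The lysate block rests on the protocol, which took RNA from a part of each lysate. Correlations of paired deviations were between -0.10 and 0.16. mRNA and RPF were tested in their own 6 libraries. CPM carry TMM factors, and 0.5 was added to counts for the TE of single lysates, while fitted log2 differences shrink those of low counts. Floors of 3 reads cover counting error only, since PCR copies are not independent molecules.

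The members, the 33 gene lists and the tests were chosen with earlier results of these data known. Named genes were the 15 highest and 15 lowest called genes whose TE in Sen 1 and Sen 3 lay on 1 side of Pro 2 and Pro 3, up to 4 such genes per list with the largest change, and RANBP1, LMNB2, CDKN2A, HMGN2, CDKN1A and HMGB1 as references. IREB2, NCOA4, TFRC, ADAR, CBX1, RBM3, RPL10, RACK1, EEF1A1, TPT1, RPL22, COL4A2, COL8A1, the other translation factors and further genes of the 27 that passed in both fits and without any 1 lysate were chosen after their values were seen. Results on some genes are not reported here. Alternatives were DESeq2 1.42.0, limma-voom 3.58.1, a regression of RPF on mRNA, other scalings, filters, thresholds and blocks, thinned RNA-seq, and each lysate left out, with the removal of GC and length trends added after seeing the data. Scripts were tested on simulated data.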

Additional observations from a re-analysis of the deposited data

How the results depend on the processing

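All 499 TE calls among well-counted genes had the same sign in each fit that left out 1 lysate and under 4 other scalings. The calls were made on the same counts, so the sign is no separate evidence. The number of these calls, and that of the 751 calls among all tested genes, depended on the setting. In the order of well-counted and all tested genes, calls numbered 75 and 76 with DESeq2, 20 and 47 with voom, 0 and 0 with the regression of RPF on mRNA, 217 and 428 when 1 read sufficed, 235 and 236 when each library had to hold 10 counts, 880 and 1339 without the lysate block ("no replicate block"), 771 and 1183 without both shallow lysates, 160 and 240 with GC and length trends removed, and 178 and 259 at an adjusted p under 0.05. With thinned RNA-seq they numbered 366 and 477, and with a mean of 200 or more RPF reads 187. Leaving out 1 lysate gave 77 to 768 and 150 to 1146 calls, from 77 without Pro 2 and 94 without Sen 3 to 768 without Pro 1. The regression gave 189 well-counted genes at an unadjusted p under 0.05, and its coefficient, taken at equal mRNA and so no TE difference, had the opposite sign for 34 of 132 named genes.

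The labels do not say whether replicate numbers pair lysates across states. Deviations with the same number correlated by 0.111, 0.071 and 0.026 (RPF) and by 0.11, -0.225 and 0.338 (mRNA). These values cannot decide it, since both library types of a lysate, paired by the protocol, correlated by only -0.104 to 0.155. With a replicate block by number, calls numbered 96 and 144, and RPF calls 2336 in place of 4088. RPF calls ranged from 2681 without Sen 1 to 4556 when 1 lysate was left out. The share of calls that were higher, 67.1%, was 54.9% with RLE factors, 54.1% with TMM on each type's own genes, 50.5% with TMM over all 12 libraries, 45.4% with library totals, 50.2% and 54.5% with the read filters and 41.8% without Pro 1. With DESeq2, 60 of 75 calls were higher.

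Values of opposite sign were 0.41 for MOV10 with CDS reads alone, 0.033 for HMGB1 with thinned RNA-seq and 0.059 with trends removed, and, for TFRC, 0.0055 with the block by number, 0.080 without Sen 1 and 0.096 with trends removed. CBX1 had -0.0037 with TMM over all libraries, -0.018 with library totals, -0.0054 with CDS reads alone, and from -0.17 (without Pro 3) to 0.21 (without Pro 2) when 1 lysate was left out, with -0.030 without Pro 1 and -0.11 without Sen 1. None of these genes but MOV10 had passed. The causes were not tested. Of other values for named genes under an alternative, 794 no longer passed and 1868 stayed on their side of the threshold. Pro 1 and Sen 2 had the fewest reads.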
